A study of Homo sapiens with 28 samples.

Results

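The effect of *HOXB13* knockdown (KD) was examined in LNCaP cells in which both *p300* and *CBP* were knocked down. It rests on 4 of the 28 polyA RNA-seq libraries of the series, 2 labeled shHOXB13+shp300/CBP and 2 labeled shCtrl+shp300/CBP, and on every gene in the files. LNCaP is an established, androgen-responsive human prostate cancer line. All 4 libraries came from cells carrying the shp300 and shCBP hairpins (both in the pLKO.1 lentiviral vector), and the groups differed in a pGIPZ lentivirus with either a *HOXB13* hairpin or the control hairpin. Each target was hit by 1 hairpin in 1 cell line, so effects particular to a hairpin and effects of losing its target cannot be told apart. The study asked whether the lipid-making program that appears on *HOXB13* loss depends on p300 and CBP. The libraries with shHOXB13 and shCtrl alone, 2 of each, served as the comparison without p300/CBP hairpins. For some genes, levels were also read in libraries with only the shp300 or only the shCBP hairpin added to shCtrl or shHOXB13. A further 12 libraries with shCtrl or shHOXB13 had received DMSO or CCS1477, a p300/CBP inhibitor, and were fitted apart.

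HOXB13 is a homeobox transcription factor of the prostate that binds enhancers, with the HDAC3 corepressor complex among its partners. p300 and CBP are related lysine acetyltransferases that acetylate histone H3 at lysine 27 on enhancers and promoters and so help transcription there. HDAC3 removes such marks. Lipogenesis in these cells runs through SREBP factors, which switch on fatty acid and sterol synthesis genes.

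Values are FPKM, fragments scaled to the length of the gene and to all mapped reads of the library, and are given in the order replicate 1 and replicate 2. Where a change is written as running "from" one pair of values "to" another, the first pair is shCtrl+shp300/CBP and the second is shHOXB13+shp300/CBP, and the control pair also comes first where pairs are set "against" each other. The same order, shCtrl and then shHOXB13, holds for values without p300/CBP hairpins. A "difference" is the log2 change with p300/CBP KD minus that without, with its own standard error and adjusted p. Log2 changes are on the log2(FPKM + 0.1) scale with the limma standard error, and adjusted p-values are from 1 limma fit of the 16 knockdown libraries with Benjamini-Hochberg adjustment over 17678 genes. The call required adjusted p under 0.05 and a change of at least 1.5-fold. Gene lists were counted at adjusted p under 0.05 alone. The labels do not say whether replicates were separate cultures, the study calls them biological duplicates, and p-values measure only the spread between these samples. Genes were named by a fixed rule of size and p, and those singled out after their values were seen are *EPCAM*, *ESPL1*, *FKBP5*, *IFI6*, *KRT8*, *KRT18*, *MSMO1*, *PLK1* and the genes of the early embryo and of the promoter search.

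The 2 shHOXB13+shp300/CBP libraries were the weaker pair. They held 11727496 and 8176869 mapped reads, against 12744547 and 16338528 in shCtrl+shp300/CBP. Of those reads, 61.6% and 52.7% lay in genes, against 70.6% and 68.1%. The median absolute difference between replicates was 0.344 on the log2 scale in shHOXB13+shp300/CBP and 0.165 in shCtrl+shp300/CBP. The luminal keratins *KRT8* and *KRT18* were present in all 4 libraries, at 73.1 and 61.5 FPKM against 175 and 117 FPKM and at 67.1 and 60.4 FPKM against 98.0 and 84.7 FPKM, and the epithelial adhesion gene *EPCAM* at 135 and 122 FPKM against 79.5 and 64.9 FPKM. Of 10 luminal prostate markers 2 rose and 6 fell (median log2 change -0.81), beside 8.29% and 34.8% of all genes at adjusted p under 0.05. Of 7 basal markers 6 stayed under 1 FPKM in these libraries, as did 4 of 4 endothelial, 9 of 10 neuroendocrine, 5 of 7 fibroblast and 7 of 8 immune markers. The exceptions were the basal keratin *KRT14* (from 1.49 and 1.61 to 0.0521 and 0.150 FPKM), the synaptic vesicle gene *SYP* (from 5.03 and 5.33 to 2.63 and 2.11 FPKM), the collagen gene *COL1A1* (from 1.23 and 1.32 to 17.8 and 5.41 FPKM), the matrix gene *LUM* (1.85 and 1.53 FPKM against 0.322 and 0.867 FPKM) and *CD68*, a lysosomal protein gene (from 4.52 and 4.29 to 40.2 and 13.8 FPKM). The summed immune list thus went from 4.86 and 4.44 to 41.2 and 14.1 FPKM and the fibroblast list from 3.31 and 3.22 to 18.4 and 6.29 FPKM, mostly through *CD68* and *COL1A1*. Without replicate 1 of shHOXB13+shp300/CBP the log2 changes of *CD68* and *COL1A1* were 1.63 and 2.00, against 2.39 and 2.85. The part of these markers in other results was not tested.

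The targeted genes were read first. *HOXB13*, at chr17:48724763-48728750 of GRCh38, fell from 53.7 and 45.0 to 5.25 and 7.94 FPKM (log2 change -2.91 ± 0.17, adjusted p = 3.7e-07), a 7.51-fold drop. The groups did not overlap, as in 67.7% of all genes tested with 2 libraries per group. Without p300/CBP hairpins *HOXB13* fell from 87.6 and 85.4 to 11.2 and 11.3 FPKM (log2 change -2.93 ± 0.17, adjusted p = 3.2e-07), and the effects differed by 0.02 (adjusted p = 0.98). *EP300*, the gene of p300, was at 11.5 and 10.5 FPKM in shCtrl and at 5.0 and 6.78 FPKM in shCtrl+shp300/CBP (log2 change -0.90, adjusted p = 0.0023). *CREBBP*, the gene of CBP, was at 6.44 and 5.96 FPKM in shCtrl and at 4.0 and 4.72 FPKM in shCtrl+shp300/CBP (log2 change -0.50, adjusted p = 0.044). Both acetyltransferase transcripts were thus lowered and not absent. The study examined the knockdown of both proteins by Western blot, and transcript levels do not measure protein. The background is called p300/CBP KD here. *HOXB13* KD on this background lowered *EP300* from 5.0 and 6.78 to 4.17 and 4.47 FPKM (log2 change -0.42 ± 0.15, adjusted p = 0.043) while *CREBBP* was at 4.0 and 4.72 FPKM against 3.62 and 4.57 FPKM (log2 change -0.09 ± 0.16, adjusted p = 0.66). *EP300* no longer passed without any 1 of 3 of these 4 libraries (adjusted p = 0.14, 0.066 and 0.37), and the sign turned under median-of-ratios scaling (0.05).

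*HOXB13* KD changed a large share of the tested transcriptome on the p300/CBP KD background, mostly downward. Of 17678 genes tested, 1253 were called higher (7.09%) and 5448 were called lower (30.8%). Without p300/CBP hairpins 1264 genes (7.15%) were called higher and 4741 (26.8%) lower. The median log2 change over all genes was -0.35 with p300/CBP KD and -0.33 without, so list medians are set beside these values. FPKM here is relative to all mapped reads, and a smaller share of them lay in genes with shHOXB13. After median-of-ratios scaling the median change with p300/CBP KD was 0.05, and 2778 genes were called higher and 2438 lower (2162 and 3318 with every library scaled to the same FPKM sum). The higher genes then made up 53.3% of calls, against 18.7% on the deposited scale. Calls with a log2 change near the all-gene median thus rest on the scale. Leaving out shHOXB13+shp300/CBP replicate 1 gave 941 higher and 5653 lower calls, and leaving out replicate 2 gave 1784 and 4785. With only the 4 libraries compared in the fit 586 genes were called higher and 3612 lower, and 22 of the 136 effects that passed among the genes named here no longer passed (adjusted p = 0.0625 to 0.243). These were *BBC3*, *CD68*, *CDH1*, *COL1A1*, *CRYAB*, *EGLN3*, *EP300*, *ESPL1*, *HOXB9*, *IGFBP3*, *KLK6*, *KRT8*, *KRT18*, *LAMA3*, *LUM*, *MBD3L3*, *MGLL*, *MT2A*, *NCOR1*, *PGK1*, *SH3D21* and *SNAI1*. FPKM also cannot tell less RNA per cell from fewer cells that express a gene.

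The HOXB13 effects with and without p300/CBP KD share no library (plot of the effect with against without p300/CBP KD). Across genes the 2 sets of log2 changes had a Pearson r of 0.571, given as a description since genes are not independent replicates. 546 genes were called higher on both backgrounds, which is 43.2% of those higher without and 43.6% of those higher with p300/CBP KD. 3172 genes were called lower on both (66.9% and 58.2%). The difference between the effects was called for 448 genes (2.53%), whose effect was higher with p300/CBP KD, and for 988 genes (5.59%), whose effect was lower. Counts of this difference moved most between fits: without 1 library they ran from 149 (shHOXB13 replicate 1 left out) to 1231 higher (shHOXB13+shp300/CBP replicate 2 left out) and from 345 (shCtrl+shp300/CBP replicate 1 left out) to 1157 lower (shHOXB13+shp300/CBP replicate 2 left out). Of the 1264 genes that rose on *HOXB13* KD alone, 310 (24.5%) had a lower effect with p300/CBP KD. Of the 4741 that fell, 295 (6.22%) had a higher one. Both sets were picked on the shHOXB13 and shCtrl libraries that also enter the difference. Such picking tends to pull the difference the other way, so these 2 shares are a description and may be too high. Genes called in opposite directions on the 2 backgrounds were few, 46 rising without and falling with p300/CBP KD and 17 the reverse.

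**Figure D1:**
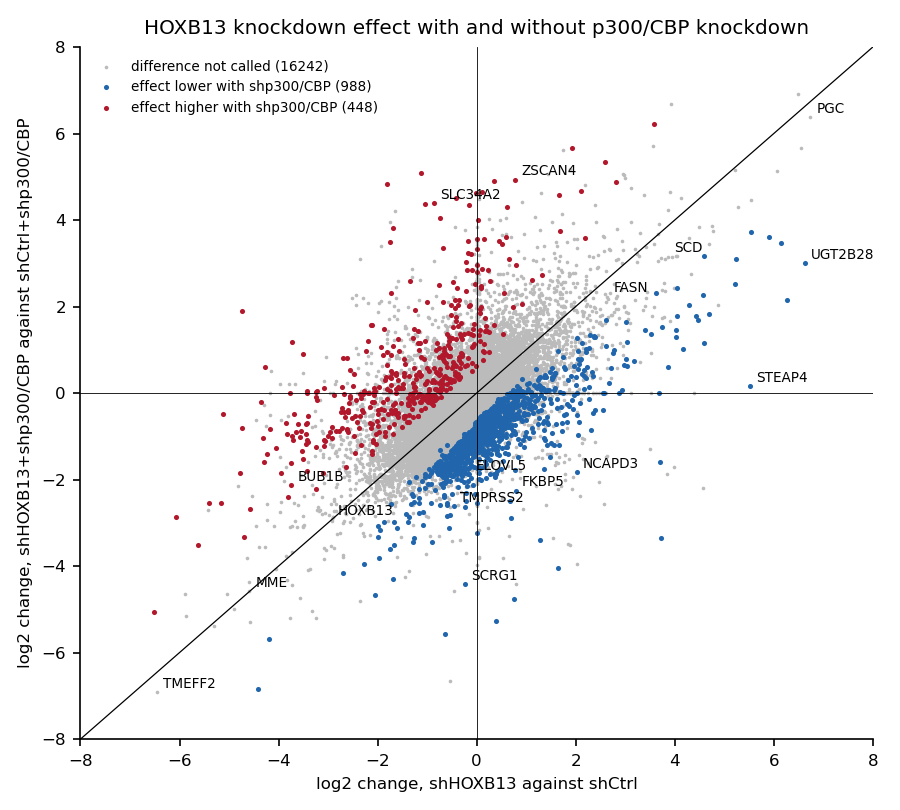
Log2 change on HOXB13 KD without p300/CBP hairpins (x axis) against the log2 change with shp300/CBP in both groups (y axis), 1 point per gene tested. The diagonal line is equal change, and gray marks genes whose difference was not called, which does not show that the effects were equal. Blue marks the 988 genes whose effect was lower with shp300/CBP and red the 448 whose effect was higher.

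Several of the largest responses had the same direction on both backgrounds. *MME*, the gene of neprilysin, a cell-surface peptidase, fell from 108 and 105 to 4.41 and 4.30 FPKM (log2 change -4.58 ± 0.14, adjusted p = 8.5e-09), and without p300/CBP hairpins it fell from 200.0 and 178 to 7.46 and 8.01 FPKM (log2 change -4.59). *TMEFF2*, a transmembrane protein gene with high prostate expression, fell from 68.8 and 47.4 to 0.221 and 0.592 FPKM (log2 change -6.92 ± 0.34, adjusted p = 1.3e-07). *SYT4*, a vesicle synaptotagmin, fell from 79.5 and 70.9 to 1.42 and 2.03 FPKM (log2 change -5.39 ± 0.20, adjusted p = 3.3e-08). All 3 are among the genes named for calls on both backgrounds, so their fall on *HOXB13* KD alone was fixed by that rule. Their differences were 0.01, -0.46 and -0.09 (adjusted p = 0.99, 0.62 and 0.89). The prostatic acid phosphatase gene *ACPP* fell from 16.5 and 15.1 to 0.290 and 0.480 FPKM (log2 change -5.06 ± 0.24, adjusted p = 1.2e-07), and *DDC*, aromatic amino acid decarboxylase, from 46.6 and 36.3 to 1.17 and 1.23 FPKM (log2 change -4.99 ± 0.25, adjusted p = 1.3e-07). The relaxin genes *RLN1* and *RLN2*, neighbours of near-identical sequence whose reads counting could split, fell from 48.1 and 40.5 to 0.340 and 0.244 FPKM and from 7.57 and 7.17 to 0.277 and 0.133 FPKM. *RLN1* fell further than without p300/CBP hairpins (difference -2.41 ± 0.47, adjusted p = 0.011). *SLC30A4*, a zinc transporter, fell from 16.8 and 14.8 to 0.418 and 0.685 FPKM, and *PTGFR*, a prostaglandin receptor, from 4.15 and 3.61 to 0.0785 and 0.0225 FPKM. *TNFRSF19*, a TNF receptor family member, fell from 28.5 and 19.9 to 0.670 and 1.06 FPKM, more than without p300/CBP hairpins (difference -2.6 ± 0.45, adjusted p = 0.0065). *ADAM7*, a metalloproteinase-like gene of the epididymis, fell from 7.09 and 5.41 to 0.0502 and 0 FPKM and *PRR16* from 5.08 and 3.88 to 0 and 0.0538 FPKM, so that both ended at the limit of what these libraries could detect.

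Among rises, *PGC*, the pepsinogen C gene, rose from 0.909 and 0.878 to 95.2 and 71.1 FPKM (log2 change 6.37 ± 0.29, adjusted p = 1.0e-07). *MUCL1*, a small secreted mucin, rose from 0 and 0.250 to 25.8 and 19.8 FPKM (log2 change 6.92 ± 0.49, adjusted p = 1.6e-06), and *TM4SF1*, a tetraspanin-like membrane protein, from 2.18 and 1.92 to 81.7 and 144 FPKM (log2 change 5.66 ± 0.26, adjusted p = 1.0e-07). *PIP*, prolactin-induced protein, and *TBX10*, a T-box factor, rose from 0.136 and 0.106 to 4.74 and 3.82 FPKM and from 0.0507 and 0.119 to 2.97 and 5.37 FPKM, and *BASP1*, a membrane-bound signaling protein, from 0 and 0.0935 to 3.95 and 5.98 FPKM. These 6 are among the genes named for calls on both backgrounds, so their rise on *HOXB13* KD alone was fixed by that rule. On *HOXB13* KD alone the log2 changes were 6.74 for *PGC*, 6.48 for *MUCL1*, 6.55 for *TM4SF1* and 5.21 for *BASP1*. One control library of *MUCL1* and of *BASP1* was at 0, so the size of their changes depends on the pseudocount. In a second set of rises the 2 libraries stood far apart. *CRYAB*, a small heat shock protein, was at 0.290 and 0.283 FPKM against 174 and 8.81 FPKM in shHOXB13+shp300/CBP, and its partner *HSPB8* at 0.588 and 0.825 FPKM against 117 and 29.7 FPKM. The cytokine gene *IL32* was at 0.265 and 0.413 FPKM against 44.8 and 10.6 FPKM and *DIO3*, a thyroid hormone deiodinase, at 1.12 and 1.28 FPKM against 117 and 23.8 FPKM. All 4 passed (adjusted p = 0.00012, 1.8e-06, 3.3e-05 and 2.0e-05), and replicate 1 was the high library each time. In a fit of only the 4 libraries compared *CRYAB* no longer passed (adjusted p = 0.069). Without replicate 1 the log2 change of *CRYAB* was 4.53 in place of 6.67, that of *HSPB8* 5.22 in place of 6.21, that of *IL32* 4.63 in place of 5.67 and that of *DIO3* 4.20 in place of 5.35. Of the 1253 genes called higher, 322 were at least 2-fold higher in replicate 1 than in replicate 2 of shHOXB13+shp300/CBP, and 42 the other way round.

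Central genes of fatty acid synthesis rose on *HOXB13* KD with p300 and CBP reduced. *FASN*, fatty acid synthase, rose from 104 and 97.2 to 494 and 450.0 FPKM (log2 change 2.23 ± 0.12, adjusted p = 2.9e-07), a 4.70-fold rise. Without p300/CBP hairpins it rose from 128 and 145 to 864 and 832 FPKM, 6.22-fold, and the difference between these effects was not called (difference -0.41 ± 0.18, adjusted p = 0.19). *SCD*, the desaturase that makes oleate, rose from 65.0 and 51.6 to 603 and 442 FPKM (log2 change 3.15 ± 0.20, adjusted p = 6.9e-07; difference -0.72 ± 0.28, adjusted p = 0.15). *SREBF1*, the gene of SREBP1, rose from 55.8 and 51.3 to 244 and 194 FPKM (log2 change 2.02 ± 0.15, adjusted p = 2.3e-06; difference 0.11 ± 0.21, adjusted p = 0.81). In all 3 genes the shHOXB13+shp300/CBP libraries lay above both shCtrl+shp300/CBP libraries and below both shHOXB13 libraries, which reached 864 and 832 FPKM for *FASN* and 1214 and 1189.6 FPKM for *SCD*. The libraries of the 2 groups with shp300/CBP did not overlap in 67.7% of all genes tested. *LPIN1*, a phosphatidate phosphatase of triglyceride synthesis, rose from 8.19 and 8.29 to 25.9 and 20.6 FPKM (log2 change 1.47; difference -0.31 ± 0.17, adjusted p = 0.31), and *NPC1*, the lysosomal cholesterol exporter, from 23.1 and 27 to 83.4 and 90.4 FPKM (log2 change 1.79; difference -0.93 ± 0.26, adjusted p = 0.051). With *SREBF1* and *NPC1*, 6 of 12 SREBP and sterol-sensing genes rose and 3 fell (median 0.45), against 8.29% and 34.8% of all genes at adjusted p under 0.05.

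Genes of elongation and of sterol synthesis gave a mixed picture. Of the 23 tested genes of fatty acid synthesis, elongation and desaturation, 4 rose and 9 fell, with a median log2 change of -0.22. These are shares of 17.4% and 39.1%, against 8.29% and 34.8% of all genes. *ELOVL5*, an elongase of polyunsaturated fatty acids, fell from 151 and 130.4 to 36.3 and 39.7 FPKM (log2 change -1.88 ± 0.16, adjusted p = 6.6e-06), while without p300/CBP hairpins it was at 227 and 209.5 FPKM against 195 and 198 FPKM (difference -1.73 ± 0.23, adjusted p = 0.0018). *HACD2*, a dehydratase of the elongation cycle, fell from 18 and 18.2 to 1.72 and 2.16 FPKM (log2 change -3.16 ± 0.22, adjusted p = 1.7e-06; difference -1.22 ± 0.32, adjusted p = 0.037) and *ELOVL7*, a long-chain elongase, from 24.5 and 19.3 to 4.22 and 3.12 FPKM (log2 change -2.55 ± 0.23, adjusted p = 8.7e-06; difference -1.39 ± 0.32, adjusted p = 0.024). Of the 20 cholesterol synthesis genes 13 rose on *HOXB13* KD alone (background 8.45%, median log2 change 0.86). With p300/CBP KD 5 rose and 7 fell (median -0.04), shares of 25% and 35% against 8.29% and 34.8% of all genes. The share that fell was thus that of all genes. Of the list 10 had a lower effect at adjusted p under 0.05 (5.59% of all genes). After median-of-ratios scaling 10 rose and 3 fell, with a median of 0.44, so the sign of this median turned with the scale while 11 genes had a lower effect.

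*HMGCS1*, an early enzyme of the sterol pathway, rose from 5.02 and 6.26 to 16.5 and 12.7 FPKM (log2 change 1.35 ± 0.17, adjusted p = 6.6e-05; difference -0.94 ± 0.23, adjusted p = 0.031), and *FDFT1*, squalene synthase, from 37.4 and 30.4 to 94.5 and 73.0 FPKM (log2 change 1.30 ± 0.18, adjusted p = 0.00014; difference -1.09 ± 0.25, adjusted p = 0.023). *MSMO1*, a sterol C4 oxidase, was at 64.6 and 53.9 FPKM against 40.6 and 53 FPKM (log2 change -0.35 ± 0.17, adjusted p = 0.11; difference -1.98 ± 0.23, adjusted p = 0.001). *SC5D*, a sterol desaturase, fell from 43.9 and 41.4 to 14.4 and 19.1 FPKM (difference -1.24 ± 0.26, adjusted p = 0.014) and *MBTPS2*, the protease that releases SREBP, from 16.9 and 15.5 to 4.37 and 5.38 FPKM (difference -1.59 ± 0.27, adjusted p = 0.0066). The calls of difference for *HMGCS1*, *FDFT1* and *SC5D* were lost in 3 to 5 of the 8 fits that left out 1 library, as those of *HACD2* and *ELOVL7* were in 7 and 5. All 20 cholesterol genes lie below the line of equal change in the plot of list members.

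The lists around these pathways are set beside all genes tested, of which 8.29% rose and 34.8% fell at adjusted p under 0.05. Acyl-CoA synthetases had 1 rise and 5 falls among 14 (median -0.37), close to those shares, the rise being *ACSL1*, which activates long-chain fatty acids, from 79.5 and 73.1 to 123 and 135 FPKM (log2 change 0.76; difference -1.33 ± 0.22, adjusted p = 0.0059). Triglyceride and lipid droplet genes had 4 rises and 7 falls among 23 (median -0.24), the falls being 30.4% of the list. Its *MGLL*, monoglyceride lipase, rose from 1.84 and 1.67 to 7.68 and 3.76 FPKM, and *GPAM*, which starts glycerolipid synthesis, fell from 5.22 and 4.66 to 0.935 and 1.01 FPKM. Fatty acid oxidation had 3 rises and 12 falls among 24 (median -0.47, against 0.08 without p300/CBP hairpins). *HSD17B4*, the peroxisomal multifunctional enzyme, fell from 117 and 107 to 23.6 and 23.5 FPKM (log2 change -2.24 ± 0.16, adjusted p = 2.1e-06), and *EHHADH*, its relative, from 2.23 and 1.80 to 0.193 and 0.123 FPKM (log2 change -3.04 ± 0.43, adjusted p = 0.00018). *ACADM*, medium-chain acyl-CoA dehydrogenase, fell from 28.5 and 23.9 to 8.24 and 7.97 FPKM (difference -1.17 ± 0.28, adjusted p = 0.025). The lipid genes near enhancers that the study listed held 6 rises and 18 falls among 43, with a median of -0.44. That list was drawn up by the study in such cells and is not independent evidence. Median-of-ratios scaling turned the medians of the fatty acid synthesis (0.26), acyl-CoA synthetase (0.12), triglyceride (0.23), oxidation (0.02) and enhancer-list genes (0.03) to above 0.

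**Figure D2:**
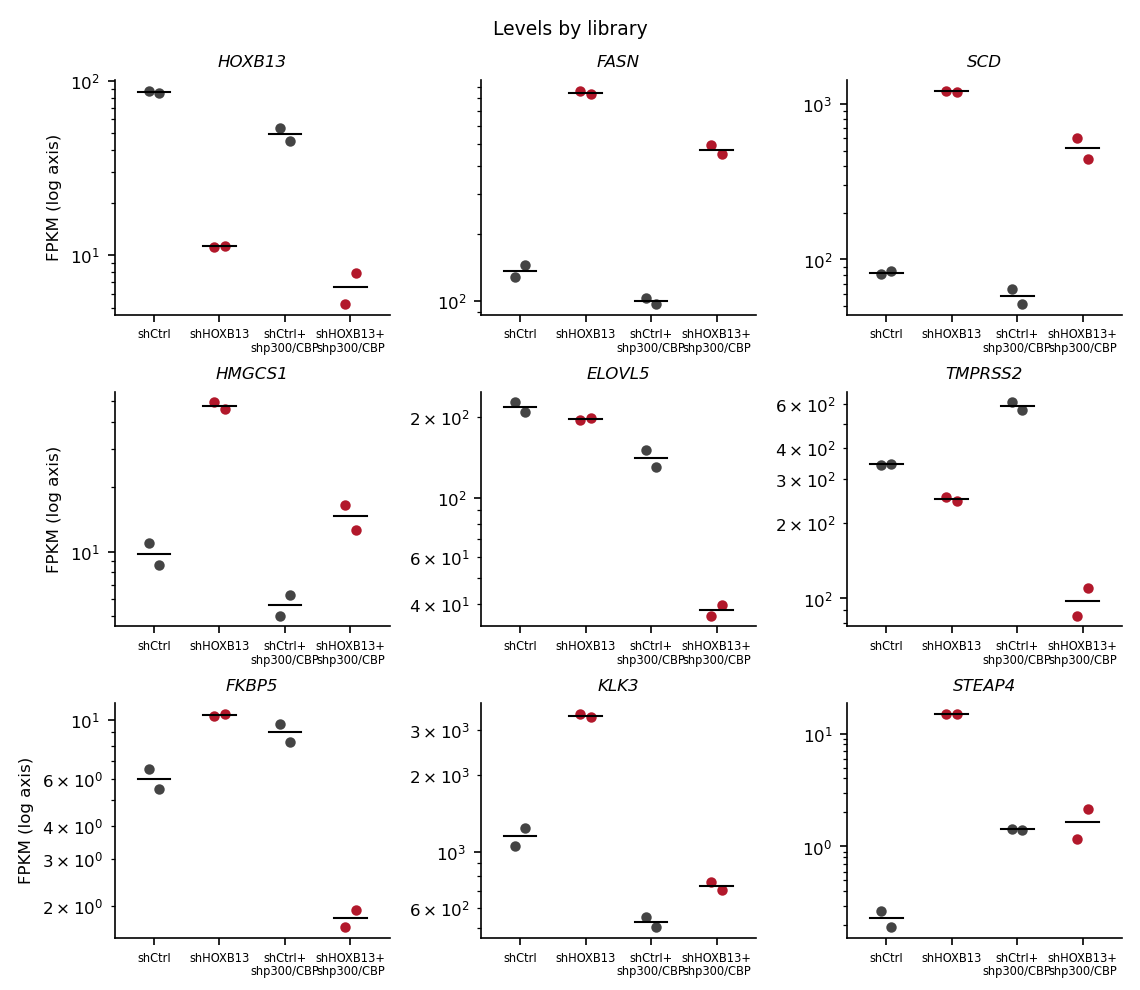
FPKM (log axis) of 9 genes in the 8 libraries without and with p300/CBP hairpins. Each point is a library and each bar the mean of the pair: FASN and SCD rise on both backgrounds, ELOVL5 falls with shp300/CBP (to 36.3 and 39.7 FPKM), TMPRSS2 falls further with it (to 85.3 and 109.8 FPKM), and STEAP4 is high in the shHOXB13 pair (14.8 and 15.0 FPKM).

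Many androgen response genes fell more deeply when p300 and CBP were also reduced. *TMPRSS2*, an androgen-induced serine protease, fell from 609.9 and 569.7 to 85.3 and 109.8 FPKM (log2 change -2.61 ± 0.17, adjusted p = 8.2e-07) and from 342 and 347 to 255 and 245 FPKM without p300/CBP hairpins (difference -2.14 ± 0.24, adjusted p = 0.00073). *FKBP5*, a co-chaperone and classical androgen target, fell from 9.67 and 8.29 to 1.67 and 1.93 FPKM (log2 change -2.26 ± 0.21, adjusted p = 9.7e-06) where it had risen from 6.51 and 5.49 to 10.3 and 10.5 FPKM on *HOXB13* KD alone (difference -3.05 ± 0.29, adjusted p = 0.00028). *FOXA1*, a pioneer transcription factor of prostate enhancers, fell from 163 and 154 to 50.5 and 76.1 FPKM (log2 change -1.35 ± 0.18, adjusted p = 0.00012; difference -0.69 ± 0.26, adjusted p = 0.13). Of 28 androgen response genes outside the kallikreins, 1 rose and 22 fell with p300/CBP KD (median -1.62) beside 8.29% and 34.8% of all genes, against 5 and 17 (background 30.8% lower) without it (median -0.70). The effect was lower for 14 of them (5.59% of all genes) and higher for 1 (2.54% of all genes), *ACPP* (difference 1.46 ± 0.34, adjusted p = 0.024). Under median-of-ratios scaling 20 still fell (median -1.14).

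*SLC45A3* and *ABCC4*, androgen-regulated transporters, fell from 134 and 122 to 11.1 and 9.37 FPKM and from 76.8 and 63.0 to 6.53 and 7.16 FPKM (difference -0.58 ± 0.22, adjusted p = 0.14, and difference -1.34 ± 0.26, adjusted p = 0.01). *STEAP4*, a metalloreductase, was at 1.42 and 1.41 FPKM against 1.18 and 2.14 FPKM (log2 change 0.16 ± 0.27, adjusted p = 0.67), while it rose from 0.269 and 0.193 to 14.8 and 15.0 FPKM on *HOXB13* KD alone, the lowest difference of effect among genes the naming rule admits (difference -5.35 ± 0.38, adjusted p = 0.00015). *HPGD*, which inactivates prostaglandins, was at 2.75 and 1.92 FPKM against 0.789 and 1.90 FPKM (log2 change -0.85 ± 0.33, adjusted p = 0.054; difference -3.16 ± 0.46, adjusted p = 0.0028). The kallikreins, secreted proteases under androgen control, moved little. *KLK3*, the gene of prostate-specific antigen, was at 555 and 505 FPKM against 759 and 709 FPKM (log2 change 0.47 ± 0.21, adjusted p = 0.098) and had risen from 1054 and 1243 to 3480.4 and 3363 FPKM on *HOXB13* KD alone (difference -1.11 ± 0.30, adjusted p = 0.044). *KLK2* fell from 27.6 and 28.0 to 18.7 and 15.4 FPKM (log2 change -0.71 ± 0.19, adjusted p = 0.0096; difference -1.33 ± 0.27, adjusted p = 0.013). The other kallikrein of 9 tested to pass was *KLK6*, from 0 and 0 to 0.897 and 0.143 FPKM (list median 0.31). Its call was lost without replicate 1 of shHOXB13+shp300/CBP (adjusted p = 0.06) and that of *KLK2* without replicate 2 (adjusted p = 0.069) and under median-of-ratios scaling (adjusted p = 0.26), where *KLK3* passed (0.95, adjusted p = 0.0011). The difference for *KLK3* was lost without any 1 of the 8 libraries, and *HPGD* passed as a fall without replicate 2 of shHOXB13+shp300/CBP (-1.43, adjusted p = 0.0019).

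Steroid glucuronidation genes rose on both backgrounds, and most by less with p300/CBP KD. UGT2B enzymes attach glucuronic acid to androgens and other steroids, and their genes form a cluster of near-identical copies on chromosome 4, so reads may be shared between them. *UGT2B11* rose from 15.9 and 21.4 to 212 and 241 FPKM (log2 change 3.6 ± 0.22, adjusted p = 5.4e-07), *UGT2B15* from 4.10 and 3.09 to 45.4 and 51.9 FPKM (log2 change 3.73 ± 0.23, adjusted p = 5.4e-07) and *UGT2B28* from 5.86 and 6.28 to 45.3 and 53.7 FPKM (log2 change 3.00 ± 0.22, adjusted p = 2.4e-06). The corresponding changes without p300/CBP hairpins were 5.90, 5.53 and 6.62, and all 3 differences were called (adjusted p = 0.0021, 0.0075 and 0.00016). For *UGT2B28* the starting level differed, with 0.514 and 0.761 FPKM in shCtrl and 5.86 and 6.28 FPKM in shCtrl+shp300/CBP. Of 10 tested, 7 rose and 1 fell (median 1.94, against 3.73 without p300/CBP hairpins), beside 8.29% and 34.8% of all genes at adjusted p under 0.05. Of the list 7 had a lower effect (5.59% of all genes).

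**Figure D3:**
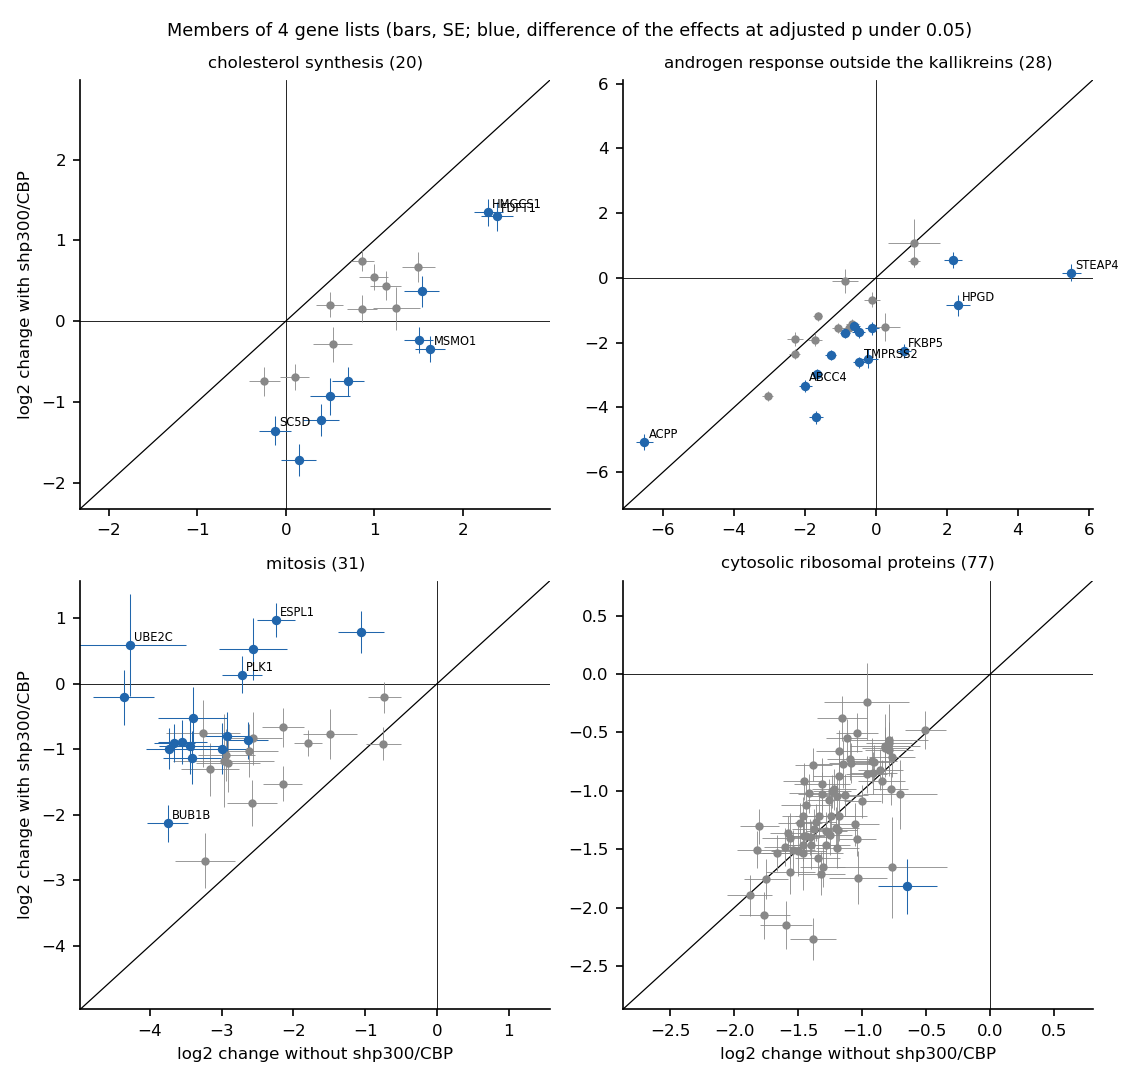
Log2 change on HOXB13 KD without (x axis) and with (y axis) shp300/CBP for each tested gene of 4 lists, with limma standard errors. Blue marks genes whose effects differed at adjusted p under 0.05: 20 of 20 cholesterol genes lie below the line of equal change, 30 of 31 mitosis genes above it, and ribosomal protein genes on both sides of it.

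Metalloproteinase genes, whose enzymes remodel extracellular matrix, rose in part. *MMP12* rose from 0.836 and 0.489 to 38.7 and 17.7 FPKM (log2 change 5.14 ± 0.45, adjusted p = 7.6e-06), *MMP13* from 1.18 and 0.945 to 30.3 and 21.5 FPKM (log2 change 4.47 ± 0.27, adjusted p = 5.4e-07) and *MMP10* from 5.04 and 4.63 to 20.7 and 23.2 FPKM (log2 change 2.16 ± 0.27, adjusted p = 7.4e-05). The effects on *MMP12* and *MMP13* were not called different without p300/CBP hairpins (differences -0.92 and -1.08, adjusted p = 0.43 and 0.12). That on *MMP10* was (difference -4.12 ± 0.38, adjusted p = 0.00024), where shCtrl had 0.329 and 0.543 FPKM and shCtrl+shp300/CBP 5.04 and 4.63 FPKM, while both shHOXB13 libraries stood at 39.1 and 42.2 FPKM. *MMP16*, a membrane-type enzyme, fell from 7.36 and 7.16 to 0.0808 and 0.0965 FPKM (log2 change -5.29 ± 0.25, adjusted p = 1.0e-07), and *MMP7* was listed at under 1 FPKM in all 4 libraries. Of 19 metalloproteinase and inhibitor genes 6 rose and 2 fell (median 0.31), against 8.29% and 34.8% of all genes.

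Epithelial genes and regulators of epithelial-mesenchymal transition (EMT) gave a mixed picture. *CDH1*, E-cadherin, fell from 195 and 178 to 133 and 87.5 FPKM (log2 change -0.79 ± 0.19, adjusted p = 0.0056), *ESRP1*, an epithelial splicing factor, from 33.3 and 34.1 to 17.0 and 12.4 FPKM and *GRHL2*, an epithelial transcription factor, from 26.3 and 25.8 to 10.6 and 15.1 FPKM. *SNAI1*, an EMT regulator, rose from 0.828 and 0.574 to 1.40 and 1.65 FPKM (log2 change 1.03 ± 0.32, adjusted p = 0.02; difference 1.70 ± 0.45, adjusted p = 0.04). *SNAI2* and *ZEB1*, its relatives in function, were under 1 FPKM in all 4 libraries, and *VIM*, vimentin, was at 5.73 and 4.36 FPKM against 7.62 and 2.12 FPKM (log2 change -0.30 ± 0.42, adjusted p = 0.6). *FN1*, fibronectin, fell from 26.0 and 25.5 to 8.95 and 5.71 FPKM (log2 change -1.83 ± 0.19, adjusted p = 2.0e-05). *CDH1* lost its call without replicate 2 of shHOXB13+shp300/CBP (adjusted p = 0.053) and under median-of-ratios scaling (adjusted p = 0.14). *SNAI1* lost its call without that library (adjusted p = 0.087) and without shCtrl+shp300/CBP replicate 2 (adjusted p = 0.14), and its difference without any 1 of 8 libraries, while *VIM* passed as a fall without replicate 1 of shHOXB13+shp300/CBP (-1.20). Of 13 genes 2 rose and 6 fell (median -0.39). Integrin and laminin genes had 2 rises and 7 falls among 22 (median -0.19, turning to 0.15 under median-of-ratios scaling), shares close to the 8.29% and 34.8% of all genes, with *ITGA6*, an integrin chain, falling from 6.93 and 6.93 to 0.719 and 1.14 FPKM and *LAMA3*, a laminin chain, rising from 13.8 and 15.3 to 23.3 and 36.6 FPKM.

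Many mitosis genes fell by less than on *HOXB13* KD alone, from a lower starting level. The 31 mitosis genes had a median level of 3.00 FPKM in shCtrl and 0.229 FPKM in shHOXB13, but 0.619 FPKM in shCtrl+shp300/CBP and 0.304 FPKM in shHOXB13+shp300/CBP. All 31 fell without p300/CBP hairpins (median log2 change -2.92), where 30.8% of all genes fell at adjusted p under 0.05. With p300/CBP KD 13 fell and 1 rose (median -0.91), shares of 41.9% and 3.23% against 34.8% and 8.29% of all genes. The share that fell was thus not far from that of all genes. Of the list 16 had a higher effect (2.54% of all genes). *BUB1B*, a spindle checkpoint kinase, fell from 1.59 and 1.16 to 0.182 and 0.294 FPKM (log2 change -2.13 ± 0.29, adjusted p = 0.00012) and from 3.41 and 2.63 to 0.149 and 0.112 FPKM without p300/CBP hairpins (difference 1.62 ± 0.40, adjusted p = 0.031). *MAD2L1*, another checkpoint protein, fell from 5.46 and 4.6 to 0.416 and 1.11 FPKM (log2 change -2.70 ± 0.42, adjusted p = 0.00032). *PLK1*, a mitotic kinase, was at 1.55 and 1.73 FPKM against 1.76 and 1.87 FPKM (log2 change 0.14 ± 0.28, adjusted p = 0.72), against a fall from 3.74 and 4.16 to 0.431 and 0.613 FPKM without p300/CBP hairpins (difference 2.85 ± 0.39, adjusted p = 0.0021), and *ESPL1*, separase, rose from 0.296 and 0.231 to 0.579 and 0.646 FPKM (log2 change 0.98 ± 0.26, adjusted p = 0.01; difference 3.22 ± 0.37, adjusted p = 0.00089). *UBE2C*, the ubiquitin-conjugating enzyme of the anaphase-promoting complex, was at 0.873 and 0.243 FPKM against 1.02 and 0.583 FPKM (log2 change 0.60 ± 0.78, adjusted p = 0.57; difference 4.87 ± 1.10, adjusted p = 0.021). Leaving out shCtrl+shp300/CBP replicate 2 ended the call of *ESPL1* (adjusted p = 0.074), the difference for *UBE2C* was lost in 5 of 8 such fits, and levels under 1 FPKM here rest on few reads.

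DNA replication genes had 18 falls among 44 (median -0.77) and 37 without p300/CBP hairpins (median -1.19), and 7 had a higher effect (2.54% of all genes). Of all genes 34.8% fell with p300/CBP KD and 30.8% without, so the share of replication genes that fell, 40.9%, was not far from that of all genes. The median level of the list was 3.52 FPKM in shCtrl+shp300/CBP and 1.99 FPKM in shHOXB13+shp300/CBP. *MCM6*, a subunit of the replicative helicase, fell from 7.60 and 6.71 to 1.76 and 2.55 FPKM (log2 change -1.71 ± 0.23, adjusted p = 0.00012) and *PCNA*, the sliding clamp, from 36.1 and 31.2 to 15.5 and 16.3 FPKM (log2 change -1.08 ± 0.17, adjusted p = 0.00041). Among inhibitors, *CDKN1A*, the gene of p21, rose from 96.3 and 112 to 746 and 625 FPKM (log2 change 2.71 ± 0.19, adjusted p = 1.4e-06; difference 0.51 ± 0.27, adjusted p = 0.28), while *CDKN1B*, the gene of p27, fell from 32.4 and 29.7 to 21.5 and 23.1 FPKM (log2 change -0.47 ± 0.17, adjusted p = 0.037) where it had risen from 37.4 and 31.7 to 80.5 and 71.5 FPKM on *HOXB13* KD alone (difference -1.61 ± 0.24, adjusted p = 0.0028). The fall of *CDKN1B* was lost without any 1 of the 4 libraries (adjusted p = 0.065 to 0.17), and its sign turned under median-of-ratios scaling (0.01). Of 9 CDK inhibitor and D-type cyclin genes 3 rose and 2 fell (median -0.15, and 0.33 after that scaling). Of 22 p53 targets 9 rose and 3 fell (median 0.31), against 2 and 8 without p300/CBP hairpins (median -0.37). Of all genes 8.29% rose with p300/CBP KD and 8.45% without, the background for both lists. Replicate 1 of shHOXB13+shp300/CBP was above replicate 2 in 8 of the 9 p53 targets that rose, in 0 of them by more than 2-fold. *BBC3*, a cell death inducer, rose from 5.28 and 6.14 to 19.9 and 11.4 FPKM (log2 change 1.39 ± 0.21, adjusted p = 0.00029; difference 1.56 ± 0.30, adjusted p = 0.01), and *CCNG1*, a cyclin G gene, fell from 117 and 102 to 48.6 and 42.6 FPKM. Median-of-ratios scaling left 4 rises and 9 falls in replication and 2 rises and 4 falls in mitosis, with 19 mitosis genes of higher effect.

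Interferon, NF-kB and immediate early genes rose more often than they fell. Of 41 interferon response genes 19 rose and 4 fell (median 0.74, against 0.53 without p300/CBP hairpins). Over all genes 8.29% rose and 34.8% fell. *IFI27*, an interferon-induced mitochondrial protein gene, rose from 1.09 and 2.14 to 17.5 and 12.9 FPKM (log2 change 3.21 ± 0.31, adjusted p = 1.4e-05), *TRIM22*, an antiviral ubiquitin ligase, from 2.16 and 2.81 to 10.0 and 10.6 FPKM (log2 change 2.02 ± 0.18, adjusted p = 7.0e-06) and *IFITM3*, which blocks virus entry, from 106 and 112 to 209 and 222 FPKM (log2 change 0.98 ± 0.17, adjusted p = 0.00056). The cells started from a higher level for part of this list: *IFI6* was at 12 and 15.3 FPKM in shCtrl and at 176 and 291 FPKM in shCtrl+shp300/CBP, and then reached 340.0 and 361 FPKM (log2 change 0.63 ± 0.25, adjusted p = 0.062; difference -2.41 ± 0.36, adjusted p = 0.003). NF-kB targets had 9 rises and 1 fall among 16 (median 1.10), with *NFKB2*, a subunit gene that the factor itself induces, from 8.14 and 6.66 to 33.0 and 26.7 FPKM (log2 change 2.00 ± 0.15, adjusted p = 3.3e-06) and the chemokine *CCL20* from 0.186 and 0.363 to 4.76 and 2.61 FPKM. Immediate early genes, the first transcribed after a stimulus, had 8 rises among 12 (median 1.34), with *EGR1*, a zinc finger factor, from 0.425 and 0.527 to 5.82 and 3.00 FPKM (log2 change 2.90 ± 0.33, adjusted p = 4.3e-05) and *JUND*, an AP-1 subunit, from 81.6 and 63.2 to 632 and 265 FPKM (log2 change 2.51 ± 0.30, adjusted p = 5.6e-05). Replicate 1 of shHOXB13+shp300/CBP was above replicate 2 in 14 of the 19, 7 of the 9 and 8 of the 8 genes that rose, and without it the change of *JUND* was 1.88.

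Metallothioneins and hypoxia genes leaned on the same library. *MT2A*, a metal-binding metallothionein, rose from 48.1 and 47.6 to 926 and 167 FPKM (log2 change 3.04 ± 0.55, adjusted p = 0.00086), *MT1G* from 5.62 and 4.84 to 69.7 and 24.5 FPKM (log2 change 2.96 ± 0.43, adjusted p = 0.00021) and *PGK1*, phosphoglycerate kinase, from 160.3 and 176 to 2559 and 474 FPKM (log2 change 2.71 ± 0.55, adjusted p = 0.0019). In each the 2 libraries with shHOXB13 lay above both controls but differed from each other by more than 2-fold. Groups did not overlap in 67.7% of all genes tested. Without replicate 1 of shHOXB13+shp300/CBP the log2 changes were 1.80 for *MT2A*, 2.21 for *MT1G* and 1.49 for *PGK1*. Of 5 metallothionein genes, close copies that may share reads, 3 rose (median 1.46), where 8.29% of all genes rose at adjusted p under 0.05. Hypoxia and glycolysis genes as a list had 3 rises and 1 fall among 26 (median 0.57), shares of 11.5% and 3.85% against 8.29% and 34.8% of all genes. The share that rose was thus near that of all genes. The rises were *PGK1*, *EGLN3*, a HIF prolyl hydroxylase (from 1.30 and 1.37 to 7.61 and 2.43 FPKM), and *ADM*, the adrenomedullin gene (from 1.92 and 2.43 to 22.5 and 11.2 FPKM). In a fit of only the 4 libraries compared *MT2A*, *PGK1* and *EGLN3* no longer passed (adjusted p = 0.1, 0.13 and 0.16).

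Genes of protein synthesis mostly fell, and those of its stress responses fell in part, where 34.8% of all genes fell and 8.29% rose at adjusted p under 0.05. Of 77 cytosolic ribosomal protein genes 73 fell (median -1.22), against 74 without p300/CBP hairpins (median -1.25), and 52 fell under median-of-ratios scaling (median -0.73). *RPL10A* of the large subunit fell from 505 and 469 to 95.9 and 106 FPKM (log2 change -2.27 ± 0.18, adjusted p = 3.9e-06) and *RPS12* of the small subunit from 1092 and 1019.8 to 230.4 and 245 FPKM (log2 change -2.15 ± 0.21, adjusted p = 1.3e-05). Ribosomal protein genes have many processed pseudogenes, so reads may be split among copies. Ribosome biogenesis had 16 falls among 21 (median -0.85), among them *NPM1*, nucleophosmin, from 78.1 and 71.0 to 34.4 and 34.9 FPKM. Of 22 ATF4 amino acid stress genes 11 fell (median -0.69, against -1.80 without). *ASNS*, asparagine synthetase, fell from 169 and 173 to 29.6 and 31.4 FPKM (log2 change -2.48 ± 0.13, adjusted p = 2.4e-07), *PHGDH*, the first enzyme of serine synthesis, from 481 and 519 to 67.2 and 68.3 FPKM (log2 change -2.88 ± 0.18, adjusted p = 5.7e-07) and *SLC7A11*, the cystine importer, from 36.7 and 36.4 to 5.22 and 3.49 FPKM (log2 change -3.07 ± 0.18, adjusted p = 3.7e-07). Unfolded protein response genes had 9 falls among 23 (median -0.47, turning to 0.02 under median-of-ratios scaling), where *HOXB13* KD alone gave 6 rises and 6 falls. *PDIA6*, a disulfide isomerase of the endoplasmic reticulum, fell from 43.4 and 36.5 to 9.59 and 10.5 FPKM (log2 change -1.97 ± 0.22, adjusted p = 3.8e-05) and was at 47.6 and 43.0 FPKM against 43.5 and 40.4 FPKM without p300/CBP hairpins (difference -1.86 ± 0.31, adjusted p = 0.0057). *HERPUD1*, which helps to clear misfolded proteins, fell from 181 and 168 to 70.5 and 58.2 FPKM (difference -1.41 ± 0.22, adjusted p = 0.0037). Respiratory chain subunits had 3 rises and 21 falls among 59 (median -0.32), shares of 5.08% and 35.6% against 8.29% and 34.8% of all genes, which median-of-ratios scaling changed to 20 rises and 10 falls (median 0.16).

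**Figure D4:**
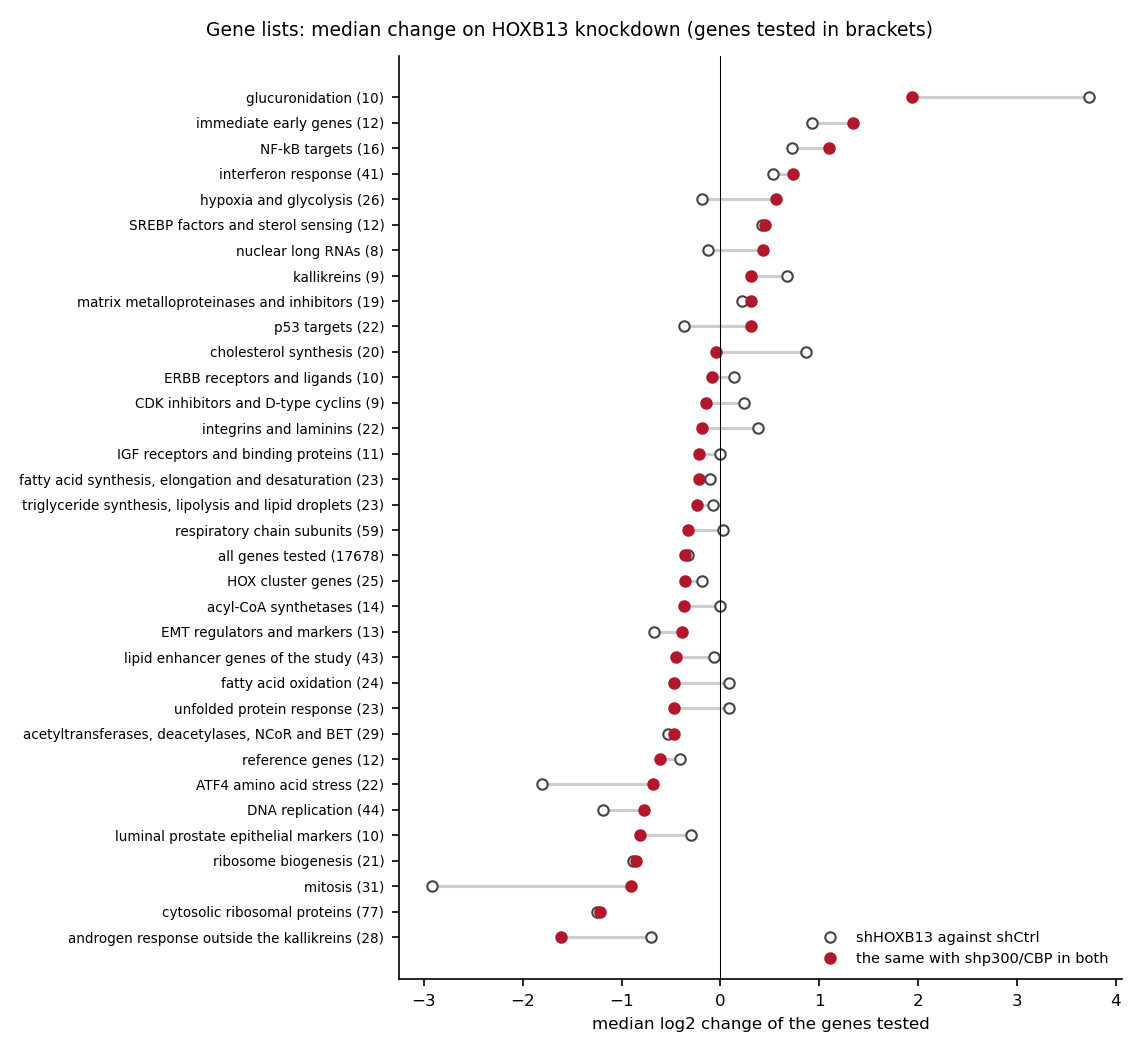
Median log2 change on HOXB13 KD over the tested genes of each list, without (open) and with (filled) shp300/CBP. The 2 medians lie furthest apart for mitosis (-2.92 and -0.91) and glucuronidation (3.73 and 1.94), and all genes tested have medians of -0.33 and -0.35.

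A group of genes of the early embryo was higher on the combined knockdown. It was singled out after its values were seen, so its values are a description. These genes belong to the burst of transcription at the cleavage stage of the human embryo, where the homeobox factor DUX4 drives them, and they are silent in most adult cells. *ZSCAN4*, at chr19:57651476-57679152, was at 0.210 and 0.245 FPKM in shCtrl+shp300/CBP and at 12.8 and 7.62 FPKM in shHOXB13+shp300/CBP. *HOXB13* KD alone left it at 0.569 and 0.561 FPKM and shCtrl at 0.322 and 0.262 FPKM. A single further hairpin gave intermediate levels, 2.56 and 1.87 FPKM in shHOXB13+shp300 and 2.75 and 3.41 FPKM in shHOXB13+shCBP, while shCtrl+shp300 and shCtrl+shCBP stayed at 0.247 and 0.132 and at 0.319 and 0.399 FPKM.

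*PRAMEF12* was at 0.618 and 0.585 FPKM in shCtrl+shp300/CBP and 26.1 and 16.6 FPKM in shHOXB13+shp300/CBP, against 1.26 and 1.60 FPKM in shHOXB13. The 4 groups with the *HOXB13* hairpin had the same order of means as for *ZSCAN4*, with 7.65 and 7.40 FPKM in shHOXB13+shp300 and 8.45 and 11.6 FPKM in shHOXB13+shCBP, and the means of these 2 groups lay closer together than the 2 libraries of the latter. *KHDC1L*, a KH-domain gene, went from 1.24 and 1.06 to 15.9 and 10.2 FPKM, *CCNA1*, the germline cyclin, from 0.239 and 0.0532 to 5.52 and 2.44 FPKM and *SLC34A2*, a phosphate transporter, from 0.0185 and 0.0720 to 3.75 and 2.24 FPKM. The homeobox gene *LEUTX* was listed at 0 in both shCtrl+shp300/CBP libraries and at 4.19 and 0.910 FPKM, resting on 33 and 5 reads. The tripartite motif genes *TRIM43*, *TRIM48* and *TRIM49B* reached 6.35 and 3.39, 8.26 and 4.74 and 7.28 and 3.96 FPKM, and *RFPL4A*, *RFPL4B* and *MBD3L2* 7.70 and 2.56, 4.22 and 1.67 and 3.31 and 1.42 FPKM. In shCtrl+shp300/CBP these 6 lay between 0 and 0.270 FPKM. The PRAMEF, TRIM43/49, RFPL4A and MBD3L families hold near-identical copies, so the level of a single copy is uncertain. *DUX4* itself, a multicopy repeat gene, was listed at 0.399 and 0 FPKM in shHOXB13+shp300/CBP (8 and 0 reads) and at 0 in both shCtrl+shp300/CBP libraries. The group was put together with the differences of effect already seen, so its place among the highest differences is no support for it. The rule also asks for a mean of 1 FPKM, which most of the group reach only in shHOXB13+shp300/CBP among the 4 groups compared. Of the 10 genes with the highest differences of effect that the naming rule admits, 8 are in this group, the others being *UBE2C* and *KRTAP20-2*, a hair keratin-associated protein gene (from 0 and 0 to 1.72 and 6.18 FPKM). *KRTAP21-2*, of the same family, was at 0 and 0 FPKM against 5.41 and 1.94 FPKM. The difference for *SLC34A2* was 5.26 ± 0.50 (limma adjusted p = 0.00028) and that for *PRAMEF12* 4.54 ± 0.39 (limma adjusted p = 0.00015). *PRAMEF12* did not exceed 0.437 FPKM and *ZSCAN4* 0.122 FPKM in the 12 libraries of the series that received DMSO or CCS1477, a p300/CBP inhibitor, with shCtrl or shHOXB13.

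**Figure D5:**
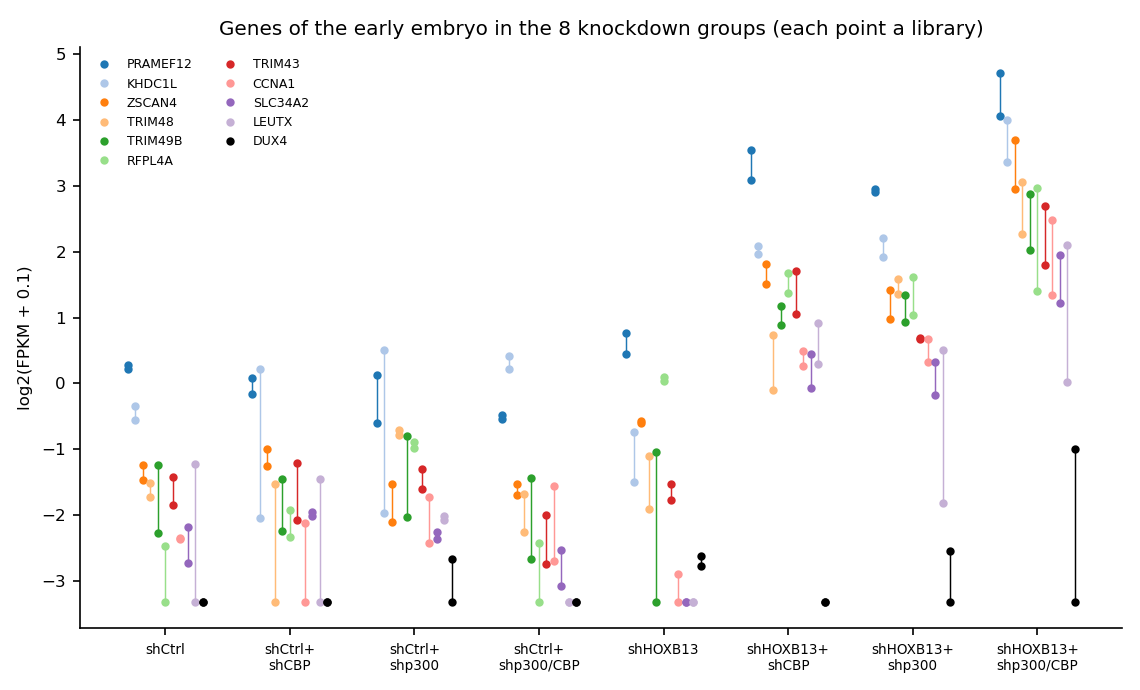
log2(FPKM + 0.1) of 10 genes of the early embryo and DUX4 in the 8 knockdown groups. Each point is a library: ZSCAN4 reaches 12.8 and 7.62 FPKM in shHOXB13+shp300/CBP, lies between 1.87 and 3.41 FPKM in shHOXB13+shp300 and shHOXB13+shCBP, and is under 0.6 FPKM in the other groups.

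Promoters of these genes were searched for the DUX4 consensus on both strands, in RefSeq windows of GRCh38.p14 that run from 250 bases before to 50 after the start. The consensus lay in 59 of 27305 promoters (0.216%). Of the 11971 tested genes that matched a window, 15 held it (0.125%). Among genes called higher with p300/CBP KD it was 9 of 813 (1.11%), and among genes called lower 2 of 4111 (0.0486%). The 9 were *TRIM48*, *TRIM49B*, *TRIM51*, *RFPL4A*, *RFPL4AL1*, *MBD3L2*, *MBD3L3*, *PRAMEF7* and *PRAMEF8*, which fall into 4 families of related copies and so are not independent. The search was prompted by the genes of the early embryo, singled out on the same values. The filter for testing also counted the shHOXB13+shp300/CBP libraries, where these genes were high. The shares are thus a description and not a test. *MBD3L3* lost its call without replicate 1 of shHOXB13+shp300/CBP (adjusted p = 0.089). The windows of *ZSCAN4*, *PRAMEF12*, *LEUTX*, *CCNA1* and *SLC34A2* did not hold these letters. The 250 bases before the start are shown for 1 gene of each of 3 families, because these hold the match, 5′ to 3′ on the gene's strand, with the match to the consensus in capitals. A match is a description and not evidence of binding.

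*TRIM48*, chr11:55261905-55262154, plus strand: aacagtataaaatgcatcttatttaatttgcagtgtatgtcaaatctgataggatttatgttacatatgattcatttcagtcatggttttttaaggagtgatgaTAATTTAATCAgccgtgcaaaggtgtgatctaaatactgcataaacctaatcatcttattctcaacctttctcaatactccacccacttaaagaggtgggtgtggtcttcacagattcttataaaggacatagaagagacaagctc
*RFPL4A*, chr19:55758847-55759096, plus strand: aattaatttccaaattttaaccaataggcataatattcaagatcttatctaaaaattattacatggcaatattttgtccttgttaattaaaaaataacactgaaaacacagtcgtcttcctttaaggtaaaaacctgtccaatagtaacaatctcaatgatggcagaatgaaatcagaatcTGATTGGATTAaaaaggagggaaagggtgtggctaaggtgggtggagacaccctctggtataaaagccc
*MBD3L2*, chr19:7049071-7049320, plus strand: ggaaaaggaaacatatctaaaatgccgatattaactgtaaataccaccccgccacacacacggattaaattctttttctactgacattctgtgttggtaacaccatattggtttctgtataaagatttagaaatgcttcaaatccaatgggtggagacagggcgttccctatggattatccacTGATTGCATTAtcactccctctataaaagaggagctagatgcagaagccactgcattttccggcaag

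The same windows were searched for 2 letter strings bound by HOXB13. CTCGTAAA was present in 31 promoters of the table, 1 of them among genes called higher and 1 among genes called lower. CCAATAAA was present in 0.71% of tested promoters, in 0.246% of those called higher (2 of 813) and in 0.632% of those called lower (26 of 4111). Both strings end in the same 4 letters.

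Other genes were named by the size of the difference between backgrounds. *SCRG1*, a secreted peptide gene, fell from 10.2 and 14.9 to 0.189 and 1.08 FPKM (log2 change -4.41 ± 0.54, adjusted p = 6.9e-05) and was at 0.481 and 0.569 FPKM against 0.531 and 0.349 FPKM without p300/CBP hairpins (difference -4.18 ± 0.77, adjusted p = 0.0085). *NCAPD3*, a condensin II subunit, fell from 28.7 and 23 to 5.40 and 9.43 FPKM (log2 change -1.83 ± 0.23, adjusted p = 7.1e-05) and had risen from 7.73 and 7.31 to 29.8 and 31.8 FPKM on *HOXB13* KD alone (difference -3.85 ± 0.32, adjusted p = 0.00015), so the sign of the effect turned. *CHRNA2*, a nicotinic receptor subunit, fell from 12.2 and 11.1 to 0.881 and 2.44 FPKM (log2 change -2.90 ± 0.31, adjusted p = 3.1e-05; difference -3.59 ± 0.44, adjusted p = 0.0013), with a log2 change of -2.21 without replicate 1 of shHOXB13+shp300/CBP, where *SCRG1* changed by -3.39. *SH3D21* rose from 16.3 and 21.8 to 51.9 and 34.2 FPKM and *KIAA1324*, an estrogen-induced gene, from 2.27 and 2.16 to 4.75 and 4.48 FPKM, each by less than without p300/CBP hairpins (difference -3.43 ± 0.29, adjusted p = 0.00015, and difference -3.14 ± 0.34, adjusted p = 0.0006). *ABCC11*, a transporter, was at 0.128 and 0.287 FPKM against 0.434 and 0.274 FPKM (log2 change 0.59 ± 0.38, adjusted p = 0.24) and rose from 0.221 and 0.210 to 4.95 and 4.11 FPKM without p300/CBP hairpins (difference -3.28 ± 0.54, adjusted p = 0.0054). Of the 64 differences called among all genes named here, 33 passed in each of the 8 fits that left out 1 library, *SCRG1*, *NCAPD3*, *CHRNA2*, *SH3D21*, *KIAA1324* and *ABCC11* among them.

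Of 29 chromatin regulator genes 24 changed by less than 2-fold, where the quartiles of the log2 change over all genes were -0.88 and 0.20. Among these acetyltransferase, deacetylase, NCoR and BET genes 5 rose and 15 fell (median -0.47, against -0.35 for all genes, and 0.00 under median-of-ratios scaling). For each list of this paragraph the background is 8.29% rising and 34.8% falling of all genes at adjusted p under 0.05. *HDAC3* fell from 22.0 and 20 to 15.3 and 14.1 FPKM (log2 change -0.51 ± 0.16, adjusted p = 0.021) and *NCOR1*, its corepressor, from 15.6 and 17.0 to 10.8 and 12.4 FPKM (log2 change -0.48 ± 0.13, adjusted p = 0.0079). Both falls rest on the scale, with log2 changes of -0.03 and 0.00 after median-of-ratios scaling. Among 25 HOX genes 3 rose and 3 fell (median -0.36), with *HOXC4* falling from 2.21 and 2.06 to 0.691 and 0.834 FPKM and *HOXB9* rising from 0.552 and 0.884 to 3.22 and 1.04 FPKM. Without shCtrl+shp300/CBP replicate 1 *HOXC4*, *HOXB9* and *HDAC3* no longer passed the test (adjusted p = 0.052, 0.16 and 0.13), and without shHOXB13+shp300/CBP replicate 1 *HOXB9* and *NCOR1* did not (adjusted p = 0.22 and 0.051). Growth factor genes changed singly: *IGF1R*, the IGF receptor, fell from 17.6 and 17.7 to 3.83 and 4.50 FPKM (log2 change -2.06 ± 0.13, adjusted p = 5.2e-07; difference -0.70 ± 0.18, adjusted p = 0.033) and *IGFBP2*, a binding protein, from 47.2 and 47.2 to 7.46 and 6.59 FPKM, whereas *IGFBP5* rose from 0.0629 and 0.0196 to 3.55 and 4.51 FPKM (log2 change 4.88 ± 0.30, adjusted p = 5.8e-07; difference 2.06 ± 0.43, adjusted p = 0.015) and the ligand gene *EGF* from 0.970 and 1.05 to 3.67 and 2.72 FPKM. *IGFBP3* rose from 2.33 and 3.12 to 21.5 and 6.88 FPKM, and *TGFA*, another EGF receptor ligand, fell from 3.69 and 3.28 to 1.07 and 1.10 FPKM. IGF receptor and binding protein genes had 2 rises and 2 falls among 11 (median -0.22) and ERBB receptors and ligands 3 rises and 1 fall among 10 (median -0.08), both medians turning positive under median-of-ratios scaling (0.22 and 0.28). The nuclear RNAs *NEAT1* and *MALAT1* rose from 36.6 and 50.2 to 170.2 and 148 FPKM and from 236 and 549 to 2173 and 3143 FPKM (adjusted p = 3.9e-05 and 0.00058), in a list of 8 long RNAs with 4 rises and 3 falls (median 0.43). The shCtrl+shp300/CBP libraries differed in *MALAT1*, whose change was 2.25 without replicate 1 and 3.47 without replicate 2. Of 12 reference genes used to normalize qPCR 7 fell (median -0.61), and 4 rose and 2 fell after median-of-ratios scaling.

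The inhibitor arm of the series gives a parallel for some of these genes, in separate libraries of 3 per group. There the log2 change of *STEAP4* on *HOXB13* KD was 5.48 with DMSO and -0.32 with CCS1477, and that of *FKBP5* 0.82 and -1.56. For *FASN* it was 2.36 and 1.23, and for *SCD* 2.6 and 2.61. On p300/CBP KD, by comparison, the changes were 0.16 for *STEAP4*, -2.26 for *FKBP5*, 2.23 for *FASN* and 3.15 for *SCD*. These values come from a different fit and are set side by side without a test.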

How the data were processed

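The RNA-seq values of 28 LNCaP libraries were used, and 4 of them carry the comparison. The authors aligned reads to GRCh38 (hg38) with STAR 2.6.0, the version their processing notes give, counted them per gene without regard to strand, and deposited FPKM made with a Perl script, so FPKM is relative to all mapped reads. Reads recovered from FPKM were whole (within 0.05) for 100.0% of 475332 values, which gives the depth of 7458934 to 16338528 mapped reads per knockdown library. Precision is set by 2 libraries per group. Of 26475 listed genes 32 had no value.

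Genes with at least 0.1 FPKM in at least 2 of the 16 knockdown libraries were tested with limma 3.58.1 (R 4.3.3) on log2(FPKM + 0.1), 1 coefficient per group, a prior variance that follows the mean level, and Benjamini-Hochberg adjustment over genes for each contrast. This scale understates changes of low genes. The difference of effects is the interaction contrast. The procedure was tested on simulated data. Groups came from the sample titles and characteristics. Libraries without p300/CBP hairpins, with a single p300 or CBP hairpin, and with the inhibitor (own fit) serve as comparison.

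Some genes that the rule names are not reported here. Named genes are the targeted genes, genes the study names, the 12 largest rises and falls among called genes that reach 1 FPKM with separate libraries, up to 4 genes per list by smallest p, the 10 largest differences each way and the 8 genes each way called on both backgrounds. The comparison, the 33 gene lists, 6 marker lists and their tests were chosen with earlier results of these data known. Alternatives were the libraries in the fit, pseudocount, filter, scaling, prior, library weights, fold threshold, replicate block, leaving out each library and, chosen after seeing the data, limma voom on the recovered reads. Promoters and gene positions are from RefSeq (GRCh38.p14), matched by symbol.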

Additional observations from a re-analysis of the deposited data

Results flagged for a closer look

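The response to *HOXB13* KD differed between the backgrounds with and without p300/CBP hairpins, by the interaction test of limma at adjusted p under 0.05, in 64 of the genes named above. Values are the log2 change with p300/CBP KD minus that without. Among lipid genes the differences were -1.98 for *MSMO1*, -1.73 for *ELOVL5*, -1.59 for *MBTPS2*, -1.39 for *ELOVL7*, -1.33 for *ACSL1*, -1.24 for *SC5D*, -1.22 for *HACD2*, -1.17 for *ACADM*, -1.09 for *FDFT1* and -0.94 for *HMGCS1*. Among androgen-related and steroid glucuronidation genes they were -5.35 for *STEAP4*, -3.85 for *NCAPD3*, -3.62 for *UGT2B28*, -3.16 for *HPGD*, -3.05 for *FKBP5*, -2.30 for *UGT2B11*, -2.14 for *TMPRSS2*, -1.80 for *UGT2B15*, -1.34 for *ABCC4*, -1.33 for *KLK2*, -1.11 for *KLK3* and 1.46 for *ACPP*. Cell-cycle and p53 genes had -1.61 for *CDKN1B*, 1.56 for *BBC3*, 1.62 for *BUB1B*, 2.85 for *PLK1*, 3.22 for *ESPL1* and 4.87 for *UBE2C*. Genes of the early embryo and the keratin-associated gene found with them had 2.41 for *PRAMEF8*, 2.61 for *TRIM51*, 3.70 for *RFPL4AL1*, 3.97 for *MBD3L2*, 4.04 for *KHDC1L*, 4.17 for *ZSCAN4*, 4.49 for *RFPL4B*, 4.53 for *TRIM48*, 4.54 for *PRAMEF12*, 4.63 for *TRIM43*, 4.80 for *CCNA1*, 4.93 for *TRIM49B*, 5.26 for *SLC34A2*, 5.43 for *LEUTX* and 6.20 for *KRTAP20-2*. The remaining lower effects were -4.18 for *SCRG1*, -4.12 for *MMP10*, -3.59 for *CHRNA2*, -3.43 for *SH3D21*, -3.28 for *ABCC11*, -3.14 for *KIAA1324*, -2.97 for *LUM*, -2.60 for *TNFRSF19*, -2.41 for *IFI6*, -2.41 for *RLN1*, -1.86 for *PDIA6*, -1.49 for *ADAM7*, -1.41 for *HERPUD1*, -0.91 for *EPCAM* and -0.70 for *IGF1R*. The remaining higher effects were 1.70 for *SNAI1*, 2.06 for *IGFBP5*, 2.17 for *MT1G*, 2.62 for *HSPB8*, 2.76 for *DIO3* and 3.75 for *IL32*. Calls of *ACPP*, *ADAM7*, *BUB1B*, *DIO3*, *ELOVL7*, *EPCAM*, *FDFT1*, *HACD2*, *HMGCS1*, *HSPB8*, *IGF1R*, *IL32*, *KHDC1L*, *KLK3*, *LEUTX*, *LUM*, *MT1G*, *RFPL4AL1*, *SNAI1*, *TRIM51* and *UBE2C* were lost in 5 or more of the 8 fits that left out 1 library. These genes were named partly for such differences, groups hold 2 libraries each, and no group was large enough for a test of single outlying libraries.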

How the results depend on the processing

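Counts of calls on the p300/CBP KD background depended on the libraries in the fit and on the scale. With only the libraries of the groups compared, 586 genes were called higher, 3612 lower, 299 higher on both backgrounds, 1906 lower on both, and 243 had a higher effect with p300/CBP KD. Median-of-ratios scaling gave 2778 higher, 2438 lower, 1353 higher on both, 1122 lower on both and 711 with a higher effect, and all 1253 genes called higher on the deposited scale were among the 2778. Scaling to the same FPKM sum gave 2162 higher, 3318 lower, 921 higher on both, 1743 lower on both and 748 with a higher effect. A fold threshold of 2 left 3104 lower and 1403 lower on both. Without 1 library the higher effects ran from 149 to 1231 and the lower effects from 345 to 1157. Calls ran from 881 to 1784 higher and from 4366 to 5653 lower, those higher on both from 423 to 647 and those lower on both from 2287 to 3311. limma voom on the recovered reads, chosen after seeing the data, gave 1608 higher and 5634 lower. Of named genes the log2 change turned sign for *CDKN1B* (0.0091) and *EP300* (0.051) under median-of-ratios scaling, neither called there. Of 136 named effects 122 passed in every fit without 1 library, and of 64 differences 33. With only the libraries of the groups compared 22 of these effects and 15 of these differences no longer passed, the latter being *ACPP*, *ADAM7*, *BBC3*, *BUB1B*, *DIO3*, *HMGCS1*, *HSPB8*, *IGF1R*, *IL32*, *LEUTX*, *MBD3L2*, *MT1G*, *SNAI1*, *TRIM49B* and *TRIM51* (adjusted p = 0.0542 to 0.147). The cause of these shifts was not tested.

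The replicate numbers were not used to pair the samples. Deviations of same-numbered libraries correlated at 0.032 between the 2 groups, and at -0.0581 to 0.118 over 28 pairs of groups, 2 of them over 0.1. Low correlations cannot show whether same-numbered libraries were prepared together. With the replicate number as a block 1235 genes were called higher and 5402 lower, 367 and 823 had a higher or lower effect, and 536 and 3129 were called on both backgrounds. Genes under about 1 FPKM rest on few reads, most of all in the shallower shHOXB13+shp300/CBP libraries.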
